A study of Mus musculus with 9 samples.

Results

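Neuropeptide receptors are the genes described here, 32 genes chosen by name that encode G protein-coupled receptors for peptide transmitters and hormones. All 32 were found among the 32787 entries of the count table. They were measured in ventral midbrain cells of the mouse line VGAT-Cre:Ai14:Pitx3-GFP, which every group shared: VGAT-Cre acts under the control of the vesicular GABA transporter gene Slc32a1 and switches on tdTomato from the Ai14 allele in any cell that has expressed it, and GFP reports Pitx3, a transcription factor of midbrain dopamine neurons. Cells with tdTomato were sorted onto 4 plates at E16 (VGAT E16) and 3 plates at P0 (VGAT P0), and cells with tdTomato and GFP onto 1 plate at each stage (VGAT+PITX3 E16 and VGAT+PITX3 P0). The reporter is permanent, so a cell sorted by tdTomato need not express Slc32a1 at the time of the sort. Each well received a single cell, and molecules were counted from their 3′ ends with barcodes (SORT-seq, based on CEL-seq2). The methods give several brains and litters for each stage but do not assign them to plates, and the labels do not say that plates came from separate animals, so the p-values below measure the spread between plates, which may be technical in part.

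Of 3455 wells, 2035 had at least 2000 genes, at most 50000 counts and under 15% mitochondrial counts, 1460 of them on VGAT plates and 575 on VGAT+PITX3 plates. The plates held between 44 and 305 such cells and between 1435919 and 5408710 counts. VGAT P0 replicate 1 stood apart, with 44 cells at a median of 33272 counts, and VGAT P0 replicate 2 and VGAT+PITX3 P0 were shallow, at medians of 7043 and 7466. Each cell name holds 2 plate labels that disagree on stage or sort for 6 of 9 plates, and groups follow the first label, as the sample titles do. Pitx3 was at 147 and 78.04 CPM (counts scaled to a common library size, with TMM factors) on VGAT+PITX3 E16 and P0 and at most 0.38 CPM on the VGAT plates. The GABA neuron gene Gad1 was between 796 and 1210 CPM on the VGAT plates but at 14.5 and 10.3 CPM on the VGAT+PITX3 plates, where Gad2, at 936 and 1045 CPM, and Slc32a1, at 225 and 285 CPM, were present. Igf2bp3 and Dcx, genes of immature neurons that were looked up after values had been seen, were higher on each E16 plate than on any P0 plate (Igf2bp3 at least 16.7 CPM against at most 11.1 CPM). Of the 376 well barcodes, 375 were used on more than 1 plate, and the most alike pair of cells with the same barcode on different plates correlated at 0.41, below the 0.55 of the most alike pair with different barcodes.

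Neuropeptides are cut from larger precursors, packed into dense-core vesicles and released mostly during sustained firing. Their receptors act through heterotrimeric G proteins over seconds to minutes. Receptors coupled to inhibitory G proteins (the somatostatin, opioid and NPY receptors) lower cyclic AMP and open GIRK potassium channels, whereas those coupled to Gq (the neurotensin, tachykinin, orexin, vasopressin V1a and oxytocin receptors) raise intracellular calcium, and those coupled to Gs (the CRH, PACAP, VIP and melanocortin receptors) raise cyclic AMP. In the adult ventral midbrain, kappa opioid and neurotensin receptors are known on dopamine neurons, and mu opioid receptors on neighbouring GABA neurons.

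The receptors comprised 2 abundant genes, a middle group and a tail near the limit of detection, as the heat map of levels by plate shows. Because each molecule is counted at its 3′ end, levels in CPM are not divided by gene length, except that intronic counts can rise with it. Adcyap1r1, the receptor for PACAP (pituitary adenylate cyclase-activating polypeptide), was at 90.7, 108, 111 and 106 CPM on the VGAT E16 plates, at 98.2, 151 and 103 CPM on the VGAT P0 plates, and at 149 and 162 CPM on the VGAT+PITX3 plates of E16 and P0. Oprl1, the receptor for nociceptin, was at 108, 94.8, 82.5 and 78.5 CPM, at 93.5, 68.3 and 106 CPM, and at 104 and 81.2 CPM on the same plates. Their ranges over plates overlapped, and no other receptor exceeded 42.1 CPM on any plate. Of the 32 receptors, 19 had at least 100 counts over the 2035 cells and 5 had fewer than 20: Vipr1, Sstr3, Grpr, Rxfp1 and Sstr4, the last with 1 count.

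**Figure D1:**
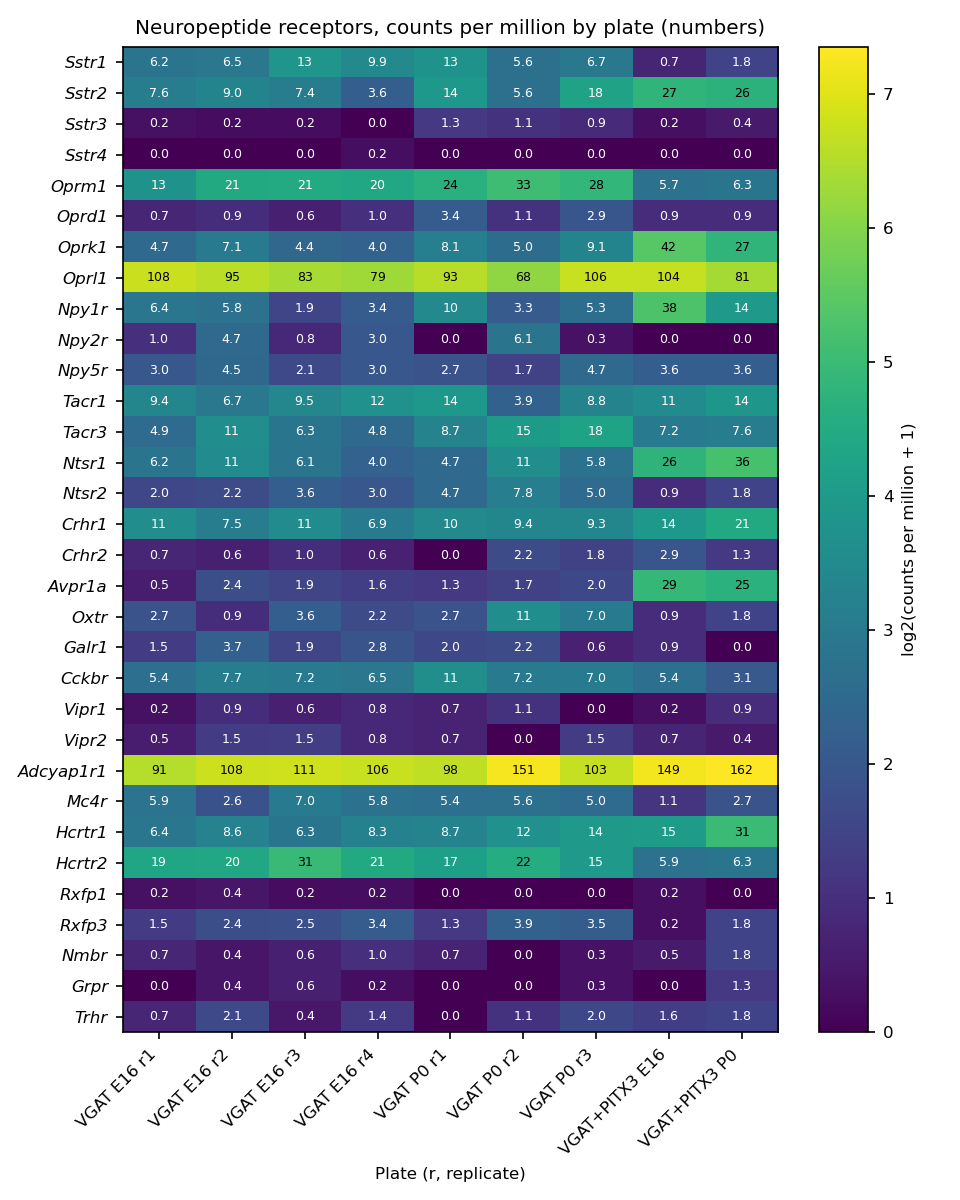
Level of each of the 32 receptors (rows) on each of the 9 plates (columns). Numbers are levels in CPM, colours log2(CPM + 1). Adcyap1r1 and Oprl1 stand out on every plate, and the 2 columns on the right (VGAT+PITX3) differ from the other 7 for Oprk1, Npy1r, Ntsr1 and Avpr1a, which are higher, and Oprm1 and Hcrtr2, which are lower.

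Shares of cells with a receptor were taken after each cell had been thinned to 4000 counts, since detection rises with depth, and 78 cells with fewer counts were left out. Adcyap1r1 was found in 36.4% ± 6.2 of thinned cells (mean ± SD, n = 9 plates) and Oprl1 in 29.2% ± 5.95. The next 8 by mean share were Oprm1 (6.72% ± 3.47), Hcrtr2 (6.30% ± 3.24), Oprk1 (4.46% ± 4.23), Sstr2 (4.29% ± 2.45), Ntsr1 (4.24% ± 4.28), Crhr1 (3.66% ± 2.12), Hcrtr1 (3.34% ± 2.63) and Tacr1 (3.24% ± 1.55). From Oprm1 to Tacr1, neighbours in this order differed by less than their SD over plates. Without thinning, Adcyap1r1 had at least 1 count in 69.6% and Oprl1 in 66.4% of cells, so these shares moved with depth. A thinned cell carried 1.20 ± 0.13 receptors on the 7 VGAT plates and 1.47 ± 0.04 on the 2 VGAT+PITX3 plates, and 27.1% ± 5.79 and 20.4% ± 3.30 of cells had none.

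**Figure D2:**
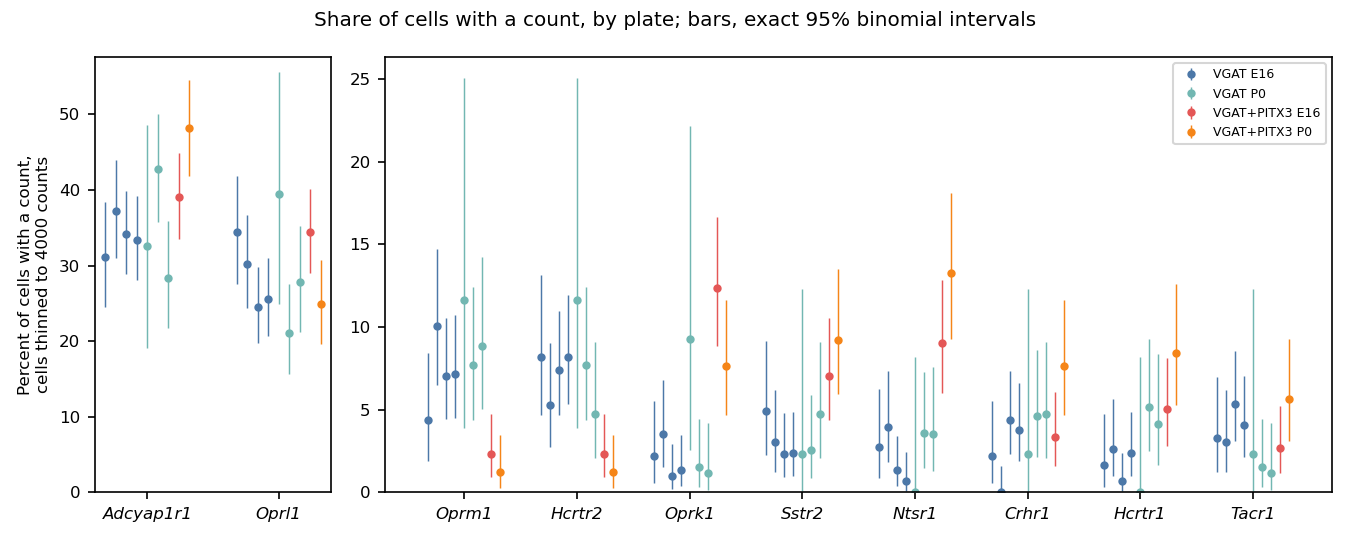
Share of cells with at least 1 count of the 10 receptors with the highest mean share, after thinning to 4000 counts a cell; 1 point a plate in 4 colours for the groups, with exact (Clopper-Pearson) 95% binomial intervals, which cover counting error only. Adcyap1r1 and Oprl1 (left) are plotted on their own scale. Oprk1, Sstr2 and Ntsr1 lie higher and Oprm1 and Hcrtr2 lower on the VGAT+PITX3 plates than on most VGAT plates, and the intervals of VGAT P0 replicate 1 (43 thinned cells) are wide.

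Outside the 10 receptors with the highest shares, Avpr1a, Npy1r, Sstr1, Tacr3, Oxtr, Ntsr2 and Mc4r are described with the comparisons. Of the others, Npy5r, an NPY receptor, ranged from 1.67 to 4.67 CPM over the plates, Rxfp3, the receptor for relaxin-3, from 0.226 to 3.89 CPM, Galr1, a galanin receptor, from 0 to 3.74 CPM, and Npy2r, another NPY receptor, from 0 to 6.11 CPM. Cckbr, the receptor for cholecystokinin and gastrin, was more abundant, between 3.14 and 11.4 CPM. Oprd1, the delta opioid receptor, Crhr2, the type 2 CRH receptor, Trhr, the receptor for thyrotropin-releasing hormone, Vipr2, a receptor for VIP, and Nmbr, the neuromedin B receptor, stayed at or below 3.36 CPM on every plate. A share of 0 on a single plate allows up to 3 cells of its thinned cells, which is 1.00% on VGAT+PITX3 E16 and 6.98% on VGAT P0 replicate 1. For 6 receptors under 50% of counts were spliced: 7.74% of Oprm1 counts were spliced, 9.52% of Nmbr, 35.9% of Oprd1, 42.1% of Vipr1, 43.7% of Vipr2 and 47.7% of Hcrtr2, against a median of 90.0% over the 32 receptors. Oprm1 spans 279693 bases on chromosome 10 (GRCm38, 6758506 to 7038198, plus strand) and overlaps Ipcef1 on the other strand. Whether the authors counted by strand is not stated in the sources used here, so for genes with an overlap (Oprm1, Sstr2 with Slc39a11, Avpr1a with Gm48877, Hcrtr2 with Gm27234, and likewise Vipr2 and Nmbr) a share of the counts may belong to the partner. Rxfp1 overlaps Gm26984 on the same strand, which counting by strand would not separate.

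The comparison of the 2 sorts asked which receptors differ between VGAT+PITX3 cells, which carry a dopamine neuron factor, and the other VGAT cells of the same region. The sums of counts on the 9 plates entered the quasi-likelihood test of edgeR, with stage as a covariate. Of the 23 receptors that passed the filter on low counts, 10 differed at an adjusted p under 0.05, 7 higher and 3 lower in VGAT+PITX3, against 8.93% of all 14624 genes tested (4.73% higher and 4.2% lower). The median log2 difference was -0.34 over the 23 receptors and 0.00 over all genes. Avpr1a, Oprk1, Npy1r, Ntsr1, Sstr2, Hcrtr1 and Crhr1 were higher, and Sstr1, Oprm1 and Hcrtr2 lower. A receptor that passed the filter because of its level in a single sort had to differ, so the share of those tested is a description. In sums over a plate, fewer cells with a receptor and less RNA per cell cannot be told apart.

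**Figure D3:**
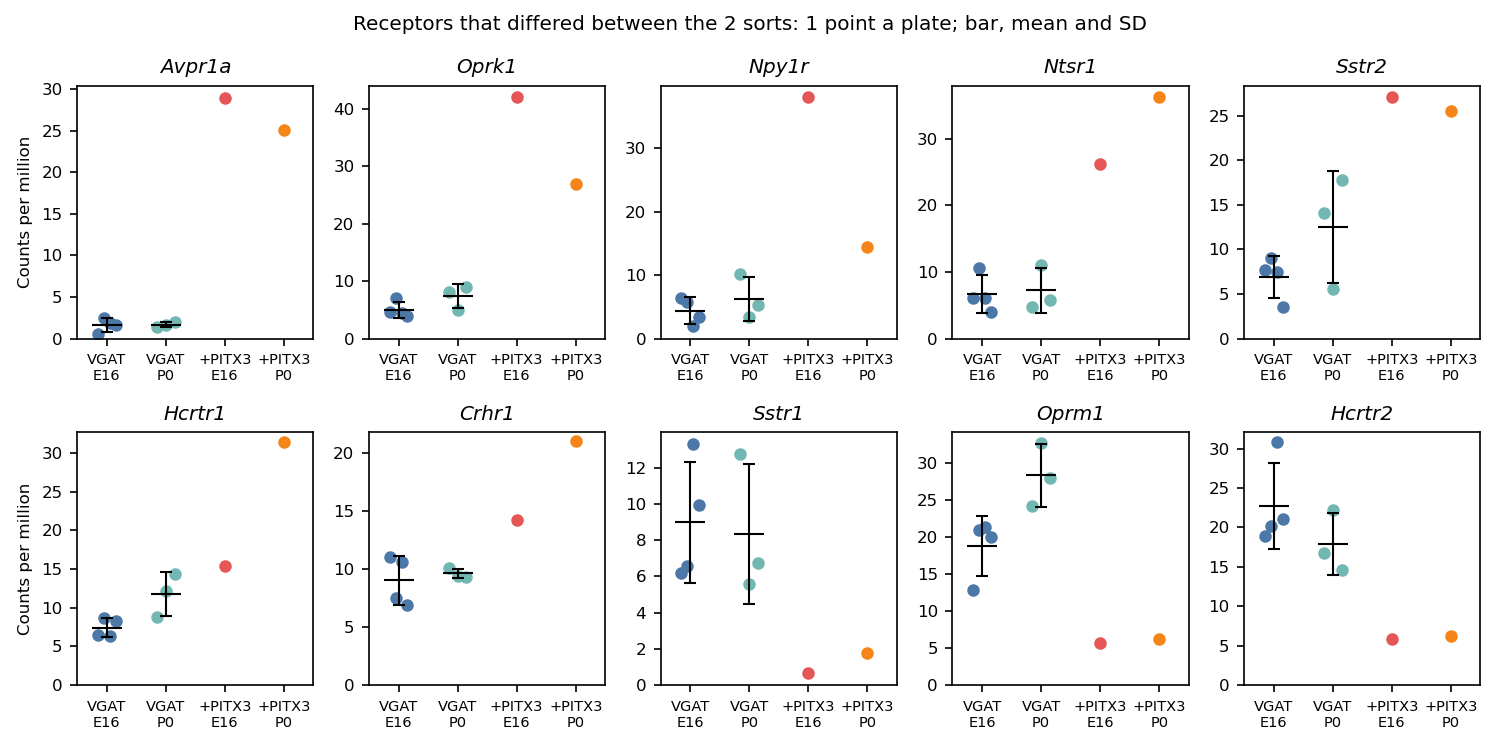
Levels of the 10 receptors that differed between the sorts, in CPM from 0 (vertical axes differ); 1 point a plate, with the mean and SD where a group has more than 1 plate. For the first 7 receptors both VGAT+PITX3 plates lie above all 7 VGAT plates, and for Sstr1, Oprm1 and Hcrtr2 both lie below.

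Among receptors coupled to Gq, Avpr1a differed most. Avpr1a, the vasopressin receptor V1a (chromosome 10, 122448499 to 122453452), was at 0.49, 2.43, 1.90 and 1.59 CPM on the VGAT E16 plates, at 1.35, 1.67 and 2.04 CPM on the VGAT P0 plates, and at 28.9 and 25.1 CPM on VGAT+PITX3 E16 and P0. Both VGAT+PITX3 plates were far above every VGAT plate, and the log2 difference was 3.99 ± 0.31 (SE from edgeR's F statistic, adjusted p = 5.76e-07). Avpr1a did not pass the filter on low counts over the VGAT plates alone, so it was tested here through its level on the VGAT+PITX3 plates and had to differ, and its p is no support beyond the levels. In thinned cells it was found in 9.03% (95% interval 6.04 to 12.9) and 7.63% (4.66 to 11.7) of VGAT+PITX3 cells, and in 0.741% ± 0.762 of VGAT cells (n = 7 plates). Ntsr1, the main neurotensin receptor (chromosome 2, 180499976 to 180544980), was at 6.16, 10.7, 6.09 and 3.97 CPM, at 4.71, 11.1 and 5.84 CPM, and at 26.2 and 36.3 CPM. The groups did not overlap, and the log2 difference was 2.12 ± 0.30 (edgeR, adjusted p = 1.80e-04). Hcrtr1, the orexin receptor that prefers orexin-A (chromosome 4, 130130217 to 130139359), was at 6.41, 8.60, 6.28 and 8.33 CPM, at 8.74, 12.2 and 14.3 CPM, and at 15.4 and 31.4 CPM. Here VGAT+PITX3 E16 lay just above the highest VGAT plate and VGAT+PITX3 P0 well above it, with a log2 difference of 1.20 ± 0.22 (edgeR, adjusted p = 0.00219). Hcrtr2, which binds orexin-A and orexin-B (chromosome 9, 76225880 to 76323856), went the other way, from 19.0, 20.2, 30.8 and 21.0 CPM and 16.8, 22.2 and 14.6 CPM to 5.88 and 6.28 CPM. Its log2 difference was -1.77 ± 0.29 (edgeR, adjusted p = 8.00e-04), so the 2 orexin receptors differed in opposite directions between the sorts.

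Of the receptors coupled to inhibitory G proteins, Oprk1 and Oprm1 differed in opposite directions. Oprk1, the kappa opioid receptor, which binds dynorphins (chromosome 1, 5588466 to 5606131), was at 4.68, 7.11, 4.37 and 3.97 CPM on the VGAT E16 plates, at 8.07, 5.00 and 9.05 CPM on the VGAT P0 plates, and at 42.1 and 26.9 CPM on the VGAT+PITX3 plates. The lower VGAT+PITX3 plate was well above the highest VGAT plate, with a log2 difference of 2.57 ± 0.27 (edgeR, adjusted p = 1.27e-05). Oprm1, the mu opioid receptor, was at 12.8, 20.9, 21.3 and 20.03 CPM, at 24.2, 32.8 and 28.0 CPM, and at 5.65 and 6.28 CPM. Every VGAT plate was above both VGAT+PITX3 plates (log2 difference -1.91 ± 0.27, edgeR, adjusted p = 1.96e-04); with spliced counts alone, 47 in all, Oprm1 did not pass the filter. Oprl1 did not differ beyond its spread (0.05 ± 0.17, adjusted p = 0.942), and Oprd1 was at 0.905 and 0.897 CPM on the VGAT+PITX3 plates, within its VGAT range of 0.570 to 3.36 CPM.

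The somatostatin receptors also parted. Sstr2 (chromosome 11, 113619342 to 113626028) was at 7.64, 8.98, 7.42 and 3.57 CPM on the VGAT E16 plates, at 14.1, 5.55 and 17.8 CPM on the VGAT P0 plates, and at 27.1 and 25.6 CPM on the VGAT+PITX3 plates, which were both above all others (log2 difference 1.55 ± 0.33, edgeR, adjusted p = 0.00712). Sstr1 (chromosome 12, 58211772 to 58214444) was at 6.16, 6.55, 13.3 and 9.91 CPM, at 12.8, 5.55 and 6.72 CPM, and at 0.678 and 1.79 CPM, from 3 and 4 counts. The VGAT+PITX3 plates were both below every VGAT plate (log2 difference -2.96 ± 0.58, edgeR, adjusted p = 0.00358). Sstr1 passed the filter on low counts through its level on the VGAT plates alone, so its p is no support beyond these levels. Sstr3 and Sstr4 had 12 counts and 1 count in all and were not tested. Npy1r, the NPY receptor Y1 (chromosome 8, 66697192 to 66706792), was at 6.41, 5.80, 1.90 and 3.37 CPM, at 10.1, 3.33 and 5.26 CPM, and at 38.0 and 14.4 CPM. The VGAT+PITX3 plates were above every VGAT plate but far apart from each other (log2 difference 2.47 ± 0.40, edgeR, adjusted p = 7.43e-04), and a single cell of VGAT+PITX3 E16 held 25 of its 168 counts. Npy2r had no count on either VGAT+PITX3 plate and 60 counts on the VGAT plates, of which 25 were on VGAT E16 replicate 2, and its adjusted p was 0.144.

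Among receptors coupled to Gs, Crhr1, the type 1 receptor for corticotropin-releasing hormone (chromosome 11, 104132855 to 104175523), was at 11.1, 7.48, 10.6 and 6.94 CPM on the VGAT E16 plates, at 10.1, 9.44 and 9.34 CPM on the VGAT P0 plates, and at 14.2 and 21.1 CPM on the VGAT+PITX3 plates. The groups did not overlap, but the difference was the smallest of the 10 (log2 0.87 ± 0.24, edgeR, adjusted p = 0.0332), and the call was kept in 7 of 15 alternatives (adjusted p between 0.0271 and 0.391). Adcyap1r1 had a log2 difference of 0.50 ± 0.15, with an adjusted p of 0.0550, and VGAT P0 replicate 2 was between the 2 VGAT+PITX3 plates. Mc4r, the melanocortin 4 receptor, was at 1.13 and 2.69 CPM on the VGAT+PITX3 plates and between 2.62 and 7.04 CPM on the VGAT plates (log2 -1.61 ± 0.51, adjusted p = 0.0712). Ntsr2 (log2 -1.61 ± 0.51, adjusted p = 0.0696), Npy2r, Oxtr, Galr1 and Rxfp3 had a negative difference whose unadjusted p was under 0.05 but did not pass the adjustment. In all, 17 of the 23 receptors had an unadjusted p under 0.05, against 18.1% of all genes.

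These differences rest on 1 VGAT+PITX3 plate at each stage. Without VGAT+PITX3 E16, 5 of the 10 were still called (Oprk1, Ntsr1, Hcrtr1, Oprm1 and Avpr1a, whose call the filter had fixed), and Sstr1, Sstr2, Npy1r, Crhr1 and Hcrtr2 kept their direction with edgeR adjusted p-values between 0.100 and 0.417 (Npy1r, log2 1.24; Sstr2, log2 0.96). Without VGAT+PITX3 P0, Crhr1 and Hcrtr1 were lost. Of the 3 vesicular glutamate transporter genes, Slc17a6 moved with the sort, at 106 and 206 CPM on the VGAT+PITX3 plates and at most 14.998 CPM on the VGAT plates, and Slc17a7 and Slc17a8 lay within their VGAT ranges. The 4 astrocyte markers summed to 27.1 and 61.0 CPM on the VGAT+PITX3 plates, to between 0.380 and 5.24 CPM on 6 VGAT plates and to 121 CPM on VGAT P0 replicate 2. Of the 4 oligodendrocyte lineage markers, whose sums overlapped between the sorts, Olig1 was at 13.3 and 14.4 CPM on the VGAT+PITX3 plates, at most 2.58 CPM on 6 VGAT plates and at 33.9 CPM on VGAT P0 replicate 2. Their part in the receptor differences was not tested.

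Sequences upstream of the start of transcription are shown for the 4 receptors that differed between the sorts, have a single start in the RefSeq promoter table and whose 250 upstream bases lie outside the gene model, all of them higher in VGAT+PITX3. They serve to compare promoters of genes with the same direction between the sorts. They are given 5′ to 3′ in GRCm38.p6 from RefSeq, in lower case, with capitals at matches on either strand to any of 6 motifs. An extended site of the dopamine neuron factor NR4A2 was spelled AAAGGTCA. The nuclear receptor core that it contains was spelled AGGTCA. The core bound by PITX and OTX factors was spelled TAATCC. The cyclic AMP response element was spelled TGACGTCA, a TATA box was spelled TATAAA, and the core of a GC box was spelled CCGCCC.
Avpr1a (chr10:122448249-122448498, plus strand): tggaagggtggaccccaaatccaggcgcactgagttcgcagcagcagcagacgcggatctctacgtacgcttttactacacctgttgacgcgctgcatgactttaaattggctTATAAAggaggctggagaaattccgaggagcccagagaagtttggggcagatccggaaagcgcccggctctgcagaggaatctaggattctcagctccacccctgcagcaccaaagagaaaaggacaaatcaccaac
Ntsr1 (chr2:180499726-180499975, plus strand): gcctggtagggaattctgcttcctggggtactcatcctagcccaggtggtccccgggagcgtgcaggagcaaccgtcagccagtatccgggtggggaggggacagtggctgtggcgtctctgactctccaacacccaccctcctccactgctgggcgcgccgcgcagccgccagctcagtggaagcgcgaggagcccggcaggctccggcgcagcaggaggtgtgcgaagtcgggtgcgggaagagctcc
Sstr2 (chr11:113619077-113619326, plus strand): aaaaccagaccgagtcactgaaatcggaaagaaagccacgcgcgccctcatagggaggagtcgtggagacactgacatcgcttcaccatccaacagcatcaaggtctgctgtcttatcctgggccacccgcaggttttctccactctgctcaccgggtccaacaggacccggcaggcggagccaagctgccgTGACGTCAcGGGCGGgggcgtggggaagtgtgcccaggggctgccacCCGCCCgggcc
Crhr1 (chr11:104132531-104132780, plus strand): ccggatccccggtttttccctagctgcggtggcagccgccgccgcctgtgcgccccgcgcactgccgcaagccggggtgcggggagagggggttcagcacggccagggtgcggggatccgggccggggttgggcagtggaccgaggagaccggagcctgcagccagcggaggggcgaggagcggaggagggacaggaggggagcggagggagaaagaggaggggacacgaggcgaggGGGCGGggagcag

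The capitals mark TATAAA in Avpr1a, TGACGTCA in Sstr2 followed by 2 matches to CCGCCC, and CCGCCC in Crhr1, on the reverse strand, and none of the 6 motifs was in these bases of Ntsr1. Promoters of 26 of the 32 receptors were in the table, 33 sequences in all. TAATCC and AAAGGTCA were in none of the 33, against 6.25% and 1.34% of all 32851 promoters of this length. TGACGTCA was in 1 of the 33 (1.55% of all promoters), TATAAA in 4 (12.4%), CCGCCC in 9 (32.7%) and AGGTCA in 3, those of Hcrtr1, Hcrtr2 and Oxtr (14.02%). A match is a description of the letters and not a site, and the absence of a match says only that the letters are not in these 250 bases.

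Other genes of the same signalling systems were counted by lists chosen by name. As with the receptors, a gene that passed the filter through its level in a single sort had to differ, so these counts are a description. Of 9 other neuropeptide receptors tested, 4 differed between the sorts, against 8.93% of all genes: Calcrl, the receptor for CGRP and adrenomedullin (log2 4.46 ± 0.48), Pth2r (2.15 ± 0.43) and Mchr1, the melanin-concentrating hormone receptor (1.70 ± 0.29), were higher in VGAT+PITX3, and Qrfpr was lower (-3.07 ± 0.84). Of 15 peptide genes, 6 differed, against the same share of all genes. Cck (log2 4.82 ± 0.50), Adcyap1, which encodes PACAP (3.72 ± 0.42), and Grp (3.63 ± 0.44) were higher, and Pnoc, which encodes nociceptin (-6.79 ± 0.35), Npy (-6.67 ± 1.54) and Penk, which encodes enkephalins (-1.53 ± 0.42), were lower. The nociceptin gene had 3 and 5 counts on the VGAT+PITX3 plates, while its receptor Oprl1 was at 104 and 81.2 CPM there, and Npy had 2 counts on each, where Npy1r was highest. Of 19 genes of signal transduction, 5 differed, again against 8.93% of all genes: the GIRK subunit gene Kcnj6 (2.35 ± 0.21), the receptor kinase gene Grk3 (0.96 ± 0.13) and Gnaq (0.45 ± 0.13) were higher, and Kcnj3, another GIRK subunit gene (-1.13 ± 0.20), and Gnai1 (-0.75 ± 0.12) were lower. All of these were edgeR calls with adjusted p-values of at most 0.0351.

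Within the VGAT+PITX3 plates, cells were split at the median of Slc6a3, the dopamine transporter gene, on each plate, to ask whether the receptors differ with the dopamine neuron program. The upper group held 288 cells and the lower 287. In the upper groups of E16 and P0, Th, which encodes the enzyme that makes L-DOPA, was at 952 and 748 CPM (without TMM factors) and Gad2 at 163 and 429 CPM, and in the lower groups Th was at 66.6 and 103 CPM, Gad2 at 1749 and 1664 CPM, and Slc17a6 at 191 and 279 CPM, against 25.0 and 126 CPM in the upper. Of 12 receptors tested with the plate as a block, 5 differed, 2 higher and 3 lower in the upper group, against 7.68% of all 11479 genes (3.35% higher and 4.33% lower). A receptor that passed the filter through its level in a single Slc6a3 group, as Oprk1 did, had to differ, so this count is a description too. Ntsr1, Sstr2 and Tacr1 would not have passed through the group with the lower level alone, so their p-values are no support beyond the levels. The 2 plates leave a spread that is estimated almost wholly across genes, and the split itself uses the same cells.

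Oprk1 and Ntsr1 were higher in the upper group. Oprk1 was at 74.0 CPM in the upper and 2.83 CPM in the lower group of E16, and at 48.5 and 0 CPM at P0, which is 180 and 60 counts against 6 and 0. Nearly all of its counts in VGAT+PITX3 cells were thus in cells with high Slc6a3 (log2 difference 5.09 ± 0.40, edgeR, adjusted p = 1.52e-07), and since it passed the filter through the upper group, its p is no support beyond these levels. Ntsr1 was at 42.8 against 5.65 CPM at E16 and at 51.7 against 16.1 CPM at P0, higher in the upper group on both plates (2.30 ± 0.31, edgeR, adjusted p = 5.73e-05). Avpr1a, Sstr2 and Tacr1 were higher in the lower group. Avpr1a was at 7.81 against 51.3 CPM at E16 and at 13.7 against 36.8 CPM at P0 (log2 difference -2.18 ± 0.31, edgeR, adjusted p = 1.04e-04). Sstr2 was at 4.93 against 50.9 CPM and at 13.7 against 37.8 CPM (-2.48 ± 0.35, edgeR, adjusted p = 1.09e-04). Tacr1, the substance P receptor, was at 3.70 against 17.9 CPM at E16 but at 10.5 against 17.0 CPM at P0 (-1.50 ± 0.45, edgeR, adjusted p = 0.0481), and the call was kept in 2 of 6 alternatives; it was lost with DESeq2 (adjusted p = 0.948), with spliced counts (0.238), without the deepest cells (0.112) and without the plate as a block (0.502). Without the plate as a block, Avpr1a was still called, as was Oprk1, for which this says nothing of stability, and Ntsr1 (adjusted p = 0.0618) and Sstr2 (0.0578) were not.

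**Figure D4:**
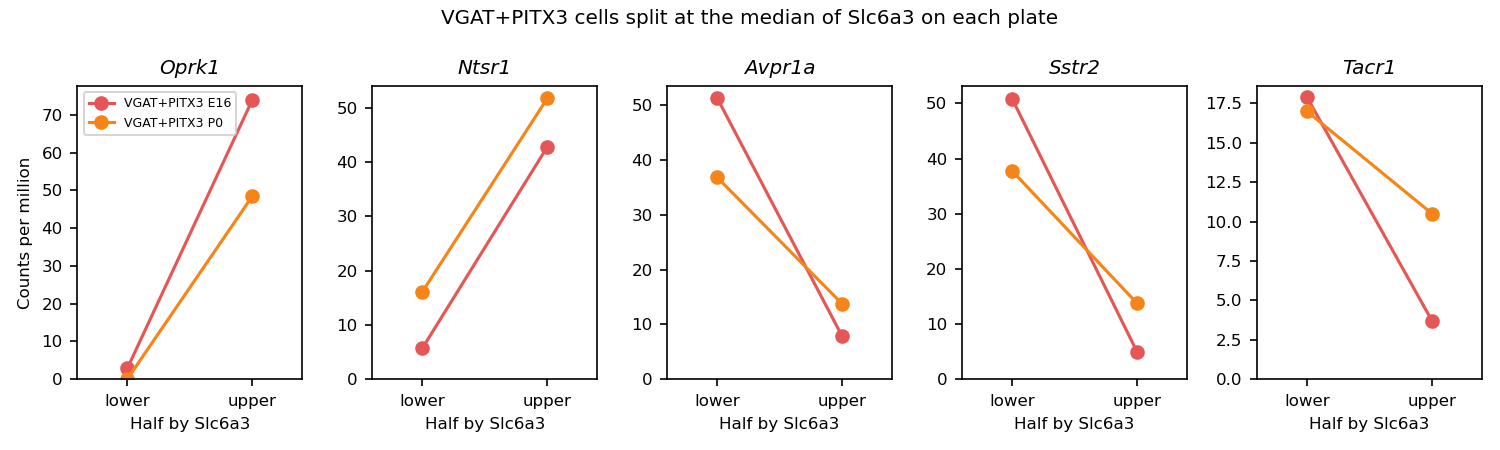
Levels of the 5 receptors that differed between VGAT+PITX3 cells below (lower) and above (upper) the median of Slc6a3, in CPM from 0 (vertical axes differ); each line joins the 2 groups of a plate, E16 in red and P0 in orange. Oprk1 and Ntsr1 rise to the upper group on both plates, and Avpr1a, Sstr2 and Tacr1 fall.

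Npy1r was spread over both groups, at 44.0 against 28.7 CPM at E16 and 16.2 against 11.3 CPM at P0 (log2 difference 0.59 ± 0.26, edgeR, adjusted p = 0.223), although it too was higher in VGAT+PITX3 than in VGAT cells. The same held for Hcrtr1 (-0.63 ± 0.29, adjusted p = 0.247) and Crhr1 (-0.24 ± 0.33, adjusted p = 0.789), by edgeR. In thinned cells, none of the 37 cells with Oprk1 on VGAT+PITX3 E16 or the 19 on VGAT+PITX3 P0 had a count of Avpr1a or Sstr2, which the other cells had in between 8.02% and 10.3%. Ntsr1 was found in 18.9% and 21.1% of cells with Oprk1 and in 7.63% and 12.6% of cells without it. These counts of cells were not tested. In the same split, the peptide gene Penk was higher in the upper group (log2 3.04 ± 0.35), and Tac1, which encodes substance P, the ligand of Tacr1 (-2.69 ± 0.41), Sst, which encodes somatostatin (-2.55 ± 0.25), and Adcyap1 (-1.44 ± 0.31) were higher in the lower group, 4 of 9 peptide genes tested. Kcnj6 was higher (1.08 ± 0.16) and Kcnj3 lower (-1.54 ± 0.30) in the upper group, 2 of 19 genes of transduction, and of the 4 other receptors tested Mchr1 was higher (1.31 ± 0.37) and Pth2r (-2.84 ± 0.63) and Calcrl (-1.12 ± 0.29) lower. These were edgeR calls with adjusted p-values of at most 0.0383, against 7.68% of all genes called in this split, and the share of transduction genes was near that background. As with the receptors, a gene that passed the filter through a single group had to differ, so these counts are a description.

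The comparison of stages asked which receptors change in VGAT cells between E16 and P0. None of the 20 receptors tested over the 7 VGAT plates passed the edgeR threshold, against 4.58% of all 13639 genes, and 6 had an unadjusted p under 0.05, against 24.1% of all genes. DESeq2 called 1, Oxtr. The 6 (Oxtr, Tacr3, Oprm1, Ntsr2, Hcrtr1 and Sstr2) all had a positive difference, that is, a higher fitted level at P0. Oxtr, the oxytocin receptor (chromosome 6, 112473683 to 112489943), had the lowest p. It was at 2.71, 0.935, 3.61 and 2.18 CPM on the VGAT E16 plates and at 2.69, 11.1 and 7.01 CPM on the VGAT P0 plates, so that VGAT P0 replicate 1 lay within the E16 range and the others above it (log2 difference 1.59 ± 0.49, edgeR, adjusted p = 0.0781). Tacr3, the neurokinin B receptor, was at 4.93, 11.2, 6.28 and 4.76 CPM and at 8.74, 15 and 18.1 CPM, with overlap (1.08 ± 0.34, edgeR, adjusted p = 0.0825). Oprm1 was higher on each VGAT P0 plate than on any VGAT E16 plate (values above), by a log2 difference of 0.60 ± 0.20 (edgeR, adjusted p = 0.0986). Ntsr2, a neurotensin receptor known from astrocytes, was at 1.97, 2.24, 3.61 and 2.97 CPM and at 4.71, 7.78 and 4.96 CPM, without overlap (1.08 ± 0.38, edgeR, adjusted p = 0.108).

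VGAT P0 replicate 2, where Oxtr, Oprm1 and Ntsr2 were highest, also had counts of markers of other cell types. All 4 astrocyte markers were highest there among the VGAT plates, and they summed to 121 CPM against between 0.380 and 5.24 CPM on the other 6, while the 4 microglia markers summed to 49.4 CPM there and to 31.4 CPM on VGAT E16 replicate 2, against at most 5.89 CPM on the other 5. Olig1 (33.9 CPM) and Slc17a6 (14.998 CPM, against at most 6.17 CPM) were highest there too among the VGAT plates. The Oxtr difference was 1.17 without VGAT P0 replicate 2 (log2, edgeR, adjusted p = 0.269) and 1.90 without VGAT P0 replicate 1, where it was called (adjusted p = 0.0450). Ntsr2 was also above every VGAT E16 plate on VGAT P0 replicates 1 and 3, where the astrocyte markers summed to 3.36 and 3.21 CPM. The part of these cell types in the receptor levels was not tested. Of the peptide genes 1 of 12 was called, against 4.58% of all genes: Rln3, which encodes relaxin-3, the ligand of Rxfp3, was at 0, 4.68, 0.761 and 1.19 CPM on the VGAT E16 plates and at 16.1, 8.33 and 11.1 CPM on the VGAT P0 plates (log2 2.74 ± 0.65, edgeR, adjusted p = 0.0367). Rln3 would not have passed the filter on low counts through the VGAT E16 plates alone, so its p is no support beyond these levels. Of the 19 genes of transduction, Grk5, a receptor kinase gene, was lower at P0 (-0.71 ± 0.17, edgeR, adjusted p = 0.0367), and none of 4 other receptors was called.

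The interaction of stage and sort asked whether the sorts differ more at either stage. None of 24 receptors and none of 15724 genes passed (background 0%); 2 receptors, Oprk1 and Npy1r, had an unadjusted p under 0.05, against 6.35% of all genes, and DESeq2 called 14 genes and no receptor. The fitted differences were -1.23 ± 0.50 for Oprk1 and -1.87 ± 0.76 for Npy1r (log2, edgeR, adjusted p = 0.773 for both), that is, a smaller fitted excess in VGAT+PITX3 at P0. With 1 VGAT+PITX3 plate a stage, the same test recovered 37% of simulated 4-fold changes and 1% of 2-fold changes.

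Among the VGAT cells, cells with at least 1 count of a marker gene of a group of GABA neurons were compared with the rest of the same plates, with the plate as a block and without the marker itself. The markers were the transcription factor genes Six3, Pax5, Otx2, Nkx2-2, and Pax7 or Otp, and any of Dlx1, Dlx2 and the non-coding Dlx6os1 (the Dlx genes), of which the study used Dlx1 for cells of the hypothalamus and not of the midbrain. A deeper cell is more likely to show a marker, so these groups are broad: 829 of the 1460 VGAT cells had a count of Six3 and 389 of Pax5. Cells with Pax5 had more Sstr1. It was at 18.8, 11.8, 23.9 and 19.4 CPM in cells with Pax5 on the VGAT E16 plates and at 34.3, 6.65 and 16.1 CPM on the VGAT P0 plates, and at 4.08, 3.99, 5.41 and 5.40 CPM and 6.39, 5.46 and 5.45 CPM in cells without. The level was higher on all 7 plates, though by little on VGAT P0 replicate 2, where it rested on 3 counts (log2 difference 1.83 ± 0.23, edgeR, adjusted p = 1.72e-04). Sstr1 passed the filter on low counts through the cells with Pax5, so its p is no support beyond these levels. Sstr1 was the only 1 of 14 receptors called, against 2.87% of all 11365 genes. With spliced counts, and without VGAT E16 replicate 2 or 3, Sstr1 did not pass the filter on low counts. It was called in the other 12 alternatives, which, where the filter was applied, says nothing of stability.

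Cells with Otx2 had more Adcyap1r1 and less Hcrtr2, 2 of 11 receptors tested, against 4.54% of all 11011 genes. Adcyap1r1 was at 119, 119, 150 and 155 CPM in cells with Otx2 on the VGAT E16 plates and at 89.8, 205 and 120 CPM on the VGAT P0 plates, and at 77.9, 106, 101 and 89.8 CPM and 108, 143 and 101 CPM in cells without. It was higher on 6 of 7 plates, all but VGAT P0 replicate 1 (log2 0.43 ± 0.10, edgeR, adjusted p = 0.0155). Hcrtr2 was at 15.03, 6.19, 25.9 and 16.6 CPM and at 17.6, 5.39 and 5.92 CPM in cells with Otx2, and at 21.6, 25.8, 33.5 and 23.7 CPM and at 17.3, 27.8 and 17.1 CPM in cells without. It was lower on 6 of 7 plates, again all but VGAT P0 replicate 1 (-0.82 ± 0.22, edgeR, adjusted p = 0.0397). Hcrtr2 would not have passed the filter on low counts through the cells with Otx2 alone, so its p is no support beyond these levels. Both calls were lost when VGAT E16 replicate 1 or 4 was left out, with adjusted p-values between 0.0633 and 0.0893. Adcyap1r1 was also lost without VGAT E16 replicate 3 (0.0655), and Hcrtr2 without VGAT E16 replicate 2 or VGAT P0 replicate 2 or 3 (between 0.0789 and 0.148) and with spliced counts (0.179). Without the plate as a block both were lost (0.409 for Adcyap1r1 and 0.296 for Hcrtr2).

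Cells with Nkx2-2 had less Oprm1, the 1 receptor called of 14, against 3.28% of all 11808 genes. It was at 11.3, 19.4, 12.8 and 14.3 CPM in cells with Nkx2-2 on the VGAT E16 plates and at 7.12, 16.2 and 22.7 CPM on the VGAT P0 plates, and at 14.2, 22.2, 27.0 and 26.9 CPM and 42.2, 40.9 and 30.6 CPM in cells without. It was lower on all 7 plates (log2 -0.81 ± 0.20, edgeR, adjusted p = 0.0330), and the call was lost without VGAT E16 replicate 3 or 4 or VGAT P0 replicate 2 (adjusted p between 0.0788 and 0.119), when the groups were taken from thinned cells (0.0834) and without the plate as a block (0.114); with spliced counts Oprm1 was not tested.

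**Figure D5:**
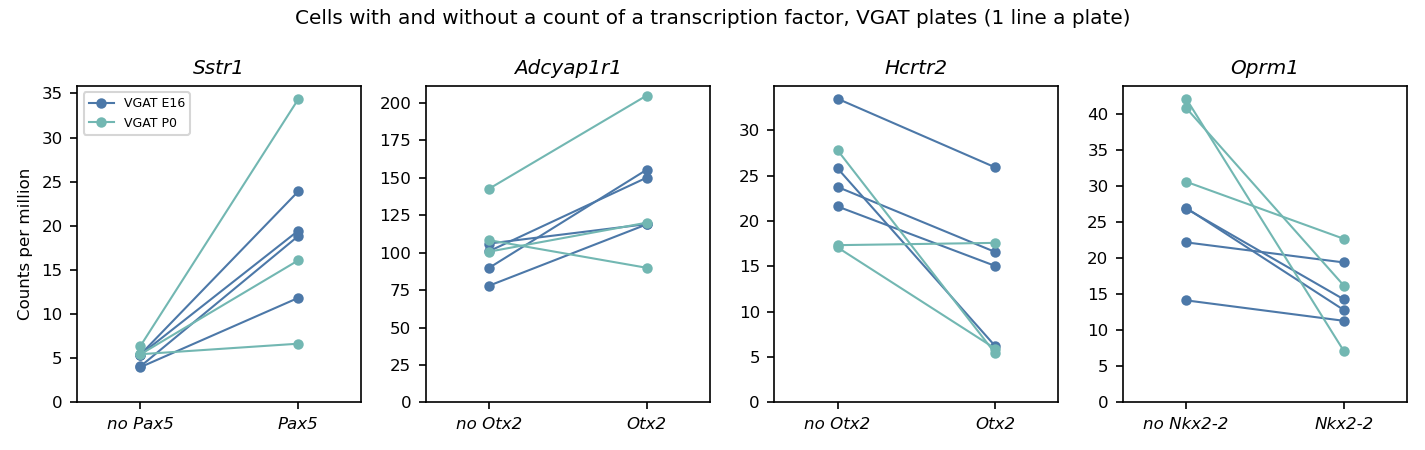
Levels of the 4 receptors that differed between VGAT cells with and without a count of a transcription factor, in CPM from 0 (vertical axes differ); each line joins the 2 groups of a plate, E16 in blue and P0 in green. Sstr1 rises with Pax5 on all 7 plates, Oprm1 falls with Nkx2-2 on all 7, and Adcyap1r1 and Hcrtr2 change with Otx2 on 6 of 7.

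No receptor was called for the other 3 groups. For Six3, 0 of 14 passed (background 0.79% of 11520 genes), 2 had an unadjusted p under 0.05, against 8.73% of all genes, and DESeq2 called 0; the lowest p was that of Hcrtr1, at 11.1 ± 4.47 CPM in cells with Six3 and 7.12 ± 3.06 CPM in cells without (log2 0.66 ± 0.24, edgeR, adjusted p = 0.382). For the Dlx genes, 0 of 9 passed over 6 plates (background 0.567% of 10932 genes), 1 had an unadjusted p under 0.05, against 6.41% of all genes, and DESeq2 called 0; the lowest p was that of Adcyap1r1 (0.24 ± 0.10, edgeR, adjusted p = 0.656), whose sign turned when 2 counts of a marker were required (-0.12). For Pax7 or Otp, 0 of 6 passed over 5 plates (background 0.42% of 10474 genes), 0 had an unadjusted p under 0.05, against 7.54% of all genes, and DESeq2 called 0; the lowest p was again that of Adcyap1r1 (-0.26 ± 0.15, edgeR, adjusted p = 0.779), whose difference ranged from -0.44 to -0.19 with a plate left out. Of the peptide genes, cells with Six3 and cells with Otx2 had more Penk (log2 0.92 ± 0.17 and 0.73 ± 0.18), cells with Otx2 had less Npy (-0.85 ± 0.19) and Tac1 (-0.93 ± 0.22), cells with Nkx2-2 had more Tac1 (1.95 ± 0.46) and Npy (0.54 ± 0.13), and cells with Pax5 had less Nts, which encodes neurotensin (-2.43 ± 0.41), all edgeR calls with adjusted p-values of at most 0.0364. Among the other receptors, Qrfpr was higher in cells with Six3 (1.52 ± 0.28, adjusted p = 0.0195) and lower in cells with Nkx2-2 (-2.15 ± 0.46, adjusted p = 0.0173), by edgeR.

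Whether a cell that makes a peptide also carries its receptor was compared within each VGAT plate, as the share of thinned cells with the receptor among cells with and without the peptide gene. Of 26 pairs, 12 had at least 5 cells with the peptide on at least 6 plates, and each was tested over plates by exact permutation of the signs of its differences (two-sided), adjusted over these 12. None passed, but the smallest p that a pair can have is 0.0156 with 7 plates and 0.0312 with 6, so no single pair could pass after adjustment, and the pairs of Sst with Sstr3 and Sstr4 and of Nmb with Nmbr had 0 cells with both genes. Npy1r was found in 1 of 176 cells with Npy, 0.255% ± 0.675 over 7 plates, and in 2.33% ± 1.63 of cells without. It was lower in cells with Npy on 7 of 7 plates (exact p = 0.0156, adjusted p = 0.188), on all but 1 of them at a share of 0, and how far the small number of cells with Npy set this was not tested. Sstr1 was found in 6.20% ± 5.50 of cells with Sst and 2.15% ± 1.01 of cells without, higher on 5 of 6 plates (exact p = 0.0938, adjusted p = 0.562). Oprl1 was found in 30.6% ± 10.2 of cells with Pnoc and 28.6% ± 5.13 of cells without (4 of 7 plates higher, exact p = 0.469, adjusted p = 1), and Oprm1 in 9.10% ± 8.41 of cells with Penk and 7.77% ± 2.14 of cells without (3 of 7 higher, exact p = 0.734, adjusted p = 1). The other 8 pairs had adjusted p-values of 1. The genes of vasopressin and CRH, ligands of Avpr1a and Crhr1, had at most 1 and 4 counts on any plate, and Hcrt, which encodes both orexins, at most 2.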

How the data were processed

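The authors sequenced 9 plates by SORT-seq and, per the methods and the submitters' processing notes, aligned reads with STAR to GRCm38 (mm10; Ensembl release 93). The deposited values are expected counts: distinct molecular barcodes per gene and well, corrected by the authors for barcode collisions, not scaled to depth; 51.7% of non-zero values were not whole, and sums were rounded. The methods give barcodes of 4 bases and the labels 6; all non-zero values fitted 6 within 0.001. Deposited tables of spliced and unspliced counts served as alternatives and for spliced shares. The methods' minimum of 85% exonic counts was not applied, since 120 cells would remain. After cells had been chosen, 92 ERCC and 34 mitochondrial entries were dropped.

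Groups came from the sample titles. Sums per plate were analysed in R 4.3.3 by the quasi-likelihood test of edgeR 4.0.16, with TMM factors after filterByExpr, and Benjamini-Hochberg adjusted p-values (threshold 0.05) cover all genes of a comparison but not the 10 comparisons. SE is the absolute log2 difference divided by the square root of F. Python 3.11.15 and numpy 2.4.6 were used for thinning (seed 1). Positions are from GENCODE M21, and promoters from RefSeq. The tests were tested on simulated data with 200 changed genes: 64% of 2-fold and 82% of 4-fold changes were recovered between sorts, with 13 other genes called, and 63% and 96% between stages, with 13. Intervals of shares are 95% exact (Clopper-Pearson); they and the limits for shares of 0 (3 cells) cover counting error only.

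The members and lists were chosen with earlier results of these data known. Values were given for each receptor with an adjusted p under 0.05 in a comparison, for the 10 with the highest share of cells and, where none was called, for the one with the lowest p, and from the other lists for called genes, up to 4 a comparison with the largest change, and ligands; further called genes were added after their values were seen. Alternatives were DESeq2 1.42.0, spliced counts, RLE factors, unfiltered genes, leaving out cells over 2 times the plate median, each plate left out, the replicate number as a block, no plate block, other marker limits and other thinning.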

Additional observations from a re-analysis of the deposited data

Results flagged for a closer look

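Among 42 comparisons of the 4 VGAT E16 plates, 2 receptors had a plate far from the others by Dixon's criterion, which chance meets in about 1 in 20 groups. Oprm1 was at 12.8 CPM (52 counts) on VGAT E16 replicate 1 and between 20.03 and 21.3 CPM on the other 3 plates. Sstr4 was at 0.198 CPM on VGAT E16 replicate 4, which is its 1 count in the data, and at 0 on the other 3. With 3 plates at 0 any count on the remaining plate meets the criterion, so the rate of 1 in 20 does not apply to Sstr4.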

How the results depend on the processing

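Each stage has 1 VGAT+PITX3 plate, and 5 of the 32 receptors had under 20 counts. Of the comparisons' counts, 119 alternatives kept the value within 1.5 times or at the same count and 30 did not; of values of single receptors, 281 kept direction and side of the threshold, 37 lost the call, 3 gained it, 20 moved and 1 turned. The cause was not tested. Called between stages (0) were 1 with DESeq2, 2 with no filter on low counts and 0 to 1 with a plate left out. Called between sorts (10) were 5 to 11 with a plate left out. In cells with Six3 (0) 1 was called, Sstr2, when 2 counts were required. In cells with Pax5 (1) 3 were called with no filter, 0 with spliced counts and 0 to 1 with a plate left out. In cells with Otx2 (2) 5 were called with no filter, 1 with spliced counts, 0 without the plate as a block and 0 to 2 with a plate left out. In cells with Nkx2-2 (1) 4 were called with no filter, 0 with spliced counts, 0 without the plate block, 2 when 2 counts were required and 0 to 2 with a plate left out; from thinned cells Hcrtr2 was called in place of Oprm1. Between Slc6a3 groups (5) 2 were called without the plate block. The Adcyap1r1 difference for the Dlx genes turned from 0.24 to -0.12 when 2 counts were required. Receptors per cell (1.26) were 2.03 at 8000 counts and 3.19 without thinning. Over all genes, stage calls (624) were 1588 with no filter, 944 with DESeq2 and between 76 and 833 with a plate left out, and sort calls (1306) were 625 without VGAT+PITX3 E16 and 866 without VGAT+PITX3 P0. With only the 3 VGAT plates whose 2 labels give the same stage, an alternative chosen after seeing the data, 0 receptors and 856 genes were called; P0 is then 1 plate, VGAT P0 replicate 2, assumed to vary like the E16 plates, so this says nothing about the stability of the stage result. Interaction calls (0) were 66 with no filter. For each group of cells the lowest gene count came without the plate block and the highest with no filter: 5 and 399 for Six3 (91), 70 and 691 for Pax5 (326), 145 and 929 for Otx2 (500), 62 and 772 for Nkx2-2 (387), 10 and 301 for the Dlx genes (62), 9 and 303 for Pax7 or Otp (44), and 122 and 1042 for the Slc6a3 groups (882; 287 with DESeq2). The interaction could not be fitted without either VGAT+PITX3 plate, nor the Slc6a3 groups with 1 plate.

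Plates that share a replicate number correlated at 0.0378, 0.0636 and 0.0445 in their deviations, too low to pair them. With the replicate number as a block, 0 receptors were called between stages (210 genes), 0 for the interaction and 8 between sorts (908 genes); Sstr2 (adjusted p = 0.0581), Npy1r (0.0640) and Crhr1 (0.391) were not called by edgeR and Adcyap1r1 was.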
